A study of Ovis aries and Mus musculus with 20 samples.

Results

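The 242 genes described here were those listed at a low level in the mesenteric adipose tissue of sheep. A gene was taken if its highest TPM in the 3 mesenteric libraries lay below 0.5 times its lowest TPM in the 6 libraries of the other visceral depots, and if its mean over those 6 libraries was at least 1 TPM. TPM is a transcript abundance scaled for gene length and for the sum over each library. The table lists 20477 genes, of which 13510 had a mean of at least 1 TPM in the other depots. The TPM values of all 9 libraries chose the members, so every difference between mesenteric fat and the other depots is a description of the choice and not a test of it.

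The libraries were made from 3 visceral depots, the greater omentum (GOM), the fat of the mesentery (MAD) and the retroperitoneal fat (RAD), of 3 female Small-tail Han sheep, each 2 years old, with 1 library per depot and animal. The animals had free access to feed and water and were fasted before tissue collection. All 3 depots came from the same animals, and no treatment, allele or transgene is given for any group. RNA was depleted of rRNA and sequenced with a directional kit, and whole tissue was used, so every level is an average over all cells of the piece. A lower level in bulk tissue can come from fewer cells of a type or from less RNA per cell, and these cannot be told apart here.

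Visceral fat lies inside the abdominal cavity. The greater omentum hangs from the stomach as a fold of peritoneum, mesenteric fat surrounds the vessels and lymph nodes that serve the intestine and drains to the liver through the portal vein, and retroperitoneal fat lies behind the peritoneum around the kidneys. Besides lipid-filled adipocytes, such tissue holds vessels, fibroblast-like progenitors, macrophages and lymphocytes, and the omental and mesenteric surfaces carry a mesothelial layer. The tables pair no gene identifier with a symbol, and none of the 20477 identifiers was found in the RefSeq gene table used here. The members are therefore given by identifier, rank and count. Their functions, their positions and the marker genes of adipocytes or other cell types were not analysed here, and the labelled depots were not checked against markers.

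The asymmetry between the depots was large. The rule that gave 242 genes for MAD gave 11 genes when it was turned to GOM, with MAD and RAD as the other depots, and 4 genes when it was turned to RAD. The reversed rule, which takes genes whose lowest level in a depot was more than 2 times the highest level elsewhere, gave 20 genes high in MAD, 4 high in GOM and 5 high in RAD. Genes set apart by a 2-fold gap in all libraries were thus mostly genes low in MAD. In most members the GOM library of animal 2 stood above the other GOM libraries and the MAD library of animal 2 below the other MAD libraries, and without both of them the rule gave 263 genes. Leaving out 1 library in turn gave 241 to 284 genes for 8 of the libraries and 368 without the MAD library of animal 1. Leaving out a library cannot narrow a gap, so members can be lost only through the minimum of the mean. The MAD library of animal 1 thus kept the most genes from passing.

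The size of the gap is given as the lowest TPM in GOM and RAD divided by the highest TPM in MAD. Over the 242 members it ranged from 2.00 to 9.13 with a median of 2.75. The gap was between 2 and 3 in 151 members, between 3 and 4 in 49, between 4 and 5 in 27 and at least 5 in 15. Most members thus stood not far above the threshold. At the threshold itself, the member with the smallest gap had at most 4.53 TPM in MAD and at least 9.07 TPM elsewhere, whereas the nearest genes outside had at most 1.26 TPM in MAD against at least 2.52 TPM elsewhere and at most 86.1 against at least 171, both with a ratio of 1.99. At the other edge of the rule, the members with the lowest means over GOM and RAD had 1.04 and 1.16 TPM, and the nearest genes left out had 0.949 and 0.927 TPM.

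**Figure D1:**
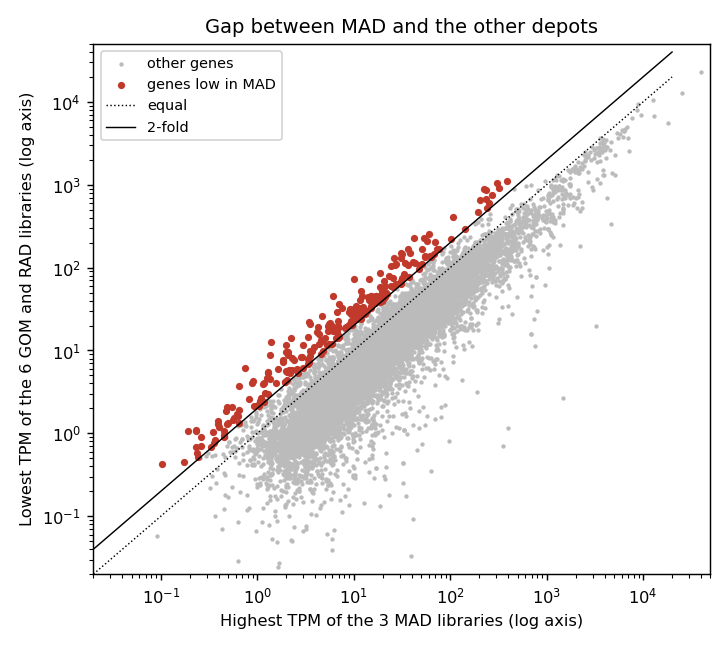
Highest TPM of the 3 MAD libraries (x axis, log scale) against the lowest TPM of the 6 GOM and RAD libraries (y axis, log scale) for genes with a mean of at least 1 TPM over GOM and RAD; red points are the 242 members, grey points other genes with a value above 0 on both axes, and the solid and dotted lines mark 2-fold and equal levels. The members lie above the 2-fold line over the whole range of levels, most of them close to it, and most grey points lie below the line of equal levels, as is usual when the lowest of 6 values is set against the highest of 3.

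The gap can be set against the spread between libraries of the same depot. The fold from the lowest to the highest library was 1.92 in the median member within GOM, 1.52 within RAD and 2.22 over the 6 libraries of both depots. Within MAD it was 1.76 in the median of the 234 members with a value above 0 in all 3 libraries. The gap was larger than the whole fold range of GOM and RAD in 169 members, 69.8% of the list. It was larger than the range of MAD in 191 of the 234. Set against a single depot, the gap was larger than the range within GOM in 185 members and than the range within RAD in 216. The rule set a lower limit on the gap from the same extreme libraries, so these counts describe the choice of members.

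The distance between group means was larger than the gap, which is taken between extreme libraries. The mean TPM of GOM was at least 4 times that of MAD in 199 members and at least 8 times in 95. The mean of RAD was at least 4 times that of MAD in 175 members and at least 8 times in 55. The median of the members' mean levels was 37.3 TPM in GOM, 5.67 TPM in MAD and 30.4 TPM in RAD.

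**Figure D2:**
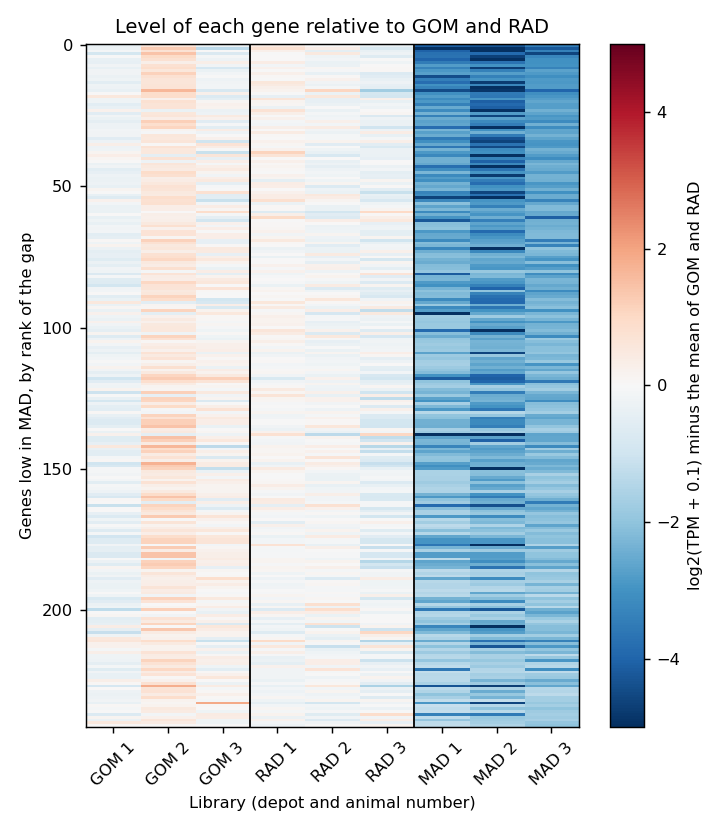
Each row is 1 of the 242 members, ordered by the rank of its gap from the largest at the top, and each column is a library; colour shows log2(TPM + 0.1) minus the gene's mean over the 6 GOM and RAD libraries. The 3 MAD columns are blue throughout, the second MAD column is the darkest in most rows, and the second GOM column is the reddest, being the highest of all 9 libraries in 171 members.

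The members spanned the range of abundance. By their mean over GOM and RAD, 61 lay between 1 and 10 TPM, 125 between 10 and 100, 48 between 100 and 1000 and 8 at 1000 or above. In percent these classes held 25.2, 51.7, 19.8 and 3.31 of the members, against 37.7, 52.2, 8.93 and 1.18 of all genes of at least 1 TPM. The members were thus more often abundant than genes in general, with a median of 35.0 TPM against 15.5 TPM. The rule used these levels and a gap between extreme libraries, so this difference was not separated from the choice of members. The members made up 5.03% of the 159 genes at 1000 TPM or above. The lowest mean was 1.04 TPM and the highest 1519 TPM.

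Few members were absent from MAD. The MAD mean was at least 1 TPM in 193 members and below 1 TPM in 49. No member was at 0 in all 3 MAD libraries, and 8 were at 0 in at least 1 of them, 4 members in the MAD library of animal 1, 5 in that of animal 2 and 0 in that of animal 3. A count of 0 allows up to 3 counts, which correspond to 0.150, 0.210 and 0.153 CPM (counts scaled to the library total) in these libraries by counting error alone. The members are thus low in MAD and mostly still detected there.

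Together the members took a small share of each library, and a smaller one in MAD. Their TPM added up to 21391, 41986 and 27999 TPM in the GOM libraries of animals 1, 2 and 3, to 4883, 3387 and 5599 TPM in MAD, and to 28716, 25019 and 21148 TPM in RAD. Hence the lowest sum outside MAD was several times the highest sum within it, a direction that the rule fixes for every member. As a share of the library, MAD gave the members 0.462% ± 0.113 of its TPM, whereas they held 3.05% ± 1.05 in GOM libraries and 2.50% ± 0.378 in those of RAD (SD, n = 3 each). The 10 most abundant members held 43.7% of the summed member TPM, so these sums rest largely on few genes. The median member, which does not, had 25.0, 43.3 and 33.6 TPM in the GOM libraries, 6.39, 4.37 and 5.95 TPM in MAD and 35.0, 30.1 and 26.4 TPM in RAD.

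The estimated counts give the depth behind these levels. Total counts per library ran from 14305713 in the second MAD library to 22249680 in the second GOM library, and the other 7 libraries lay between them. The median member had 389, 961 and 524 counts in GOM, 107, 53.7 and 113 counts in MAD and 569, 461 and 385 counts in RAD. The library with the most counts, GOM of animal 2, was thus also the one with the highest member levels, and the library with the fewest, MAD of animal 2, the one with the lowest; the part of depth in this was not tested. Members with fewer than 10 counts numbered 27, 46 and 22 in the MAD libraries and at most 3 in any GOM or RAD library. At least 100 counts in all 6 GOM and RAD libraries were found for 177 members, while 3 members had fewer than 10 counts in a GOM or RAD library and 16 had fewer than 10 in all 3 MAD libraries. For those 16 the level in MAD rests on single reads.

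TPM and counts gave the same account of a gene across libraries apart from the scale of the library. The ratio of count to TPM, after removal of the library's scale, was constant for each gene, with a largest relative spread of 1.63e-09 over the 12002 genes at 1 TPM or above in all libraries, so the values used 1 length per gene in every library. On this ratio the median member had a relative length of 0.778, where the median of genes at 1 TPM or above was 0.977, with middle ranges that overlapped (0.388 to 1.28 in members and 0.506 to 1.70 in all genes). The rule was also applied to CPM with TMM factors, which correct library totals for composition. The minimum of 1 was then set on the mean CPM, which is not scaled for gene length. The rule on CPM gave 243 genes, of which 206 were members. These shared genes were 85.1% of the members and 84.8% of the genes found on counts.

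The 2 identifiers with the largest gap stand for the list, taken among members with at least 100 counts in every GOM and RAD library. ENSOARG00020006259 had the largest gap of all, 9.13. Its level was 12.7, 25.1 and 13.5 TPM in GOM, 0.841, 0.737 and 1.38 TPM in MAD and 21.7, 16.9 and 12.6 TPM in RAD. These levels came from 240, 726 and 267 counts in GOM, 18.1, 12.5 and 33.3 in MAD and 497, 347 and 236 in RAD. The GOM and RAD libraries overlapped and all 3 MAD libraries stood far below them. The fitted log2 fold change from GOM to MAD was -4.22 with an SE of 0.49 (edgeR adjusted p = 0.00294), and that from MAD to RAD 4.17 with an SE of 0.49 (edgeR adjusted p = 0.0071). The gap that chose this gene uses the same libraries, so these fits describe it and are not a test.

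ENSOARG00020026113 had a gap of 7.33, the third largest. Its level was 59.6, 105.9 and 64.1 TPM in GOM, 3.76, 0.737 and 6.13 TPM in MAD and 75.5, 45.0 and 49.7 TPM in RAD. Again the GOM and RAD libraries overlapped, whereas the MAD libraries differed among themselves, with that of animal 2 far below the others. Its fits are again a description of a gene chosen by its gap. The log2 fold change was -4.48 with an SE of 0.67 from GOM to MAD (edgeR adjusted p = 0.00572) and 4.01 with an SE of 0.66 from MAD to RAD (edgeR adjusted p = 0.0143). The latter did not pass the threshold of 0.05 without the MAD library of animal 1 (edgeR adjusted p = 0.0673). It did not pass without the RAD library of animal 1 either (edgeR adjusted p = 0.0556). The log2 fold change was 3.92 and 3.65 in these fits, which have fewer libraries. The member between this identifier and ENSOARG00020006259 in the order of gaps had 70.9 counts in the GOM library of animal 3. It had 98.6 in the RAD library of animal 3. Both lie under the minimum of 100, and this member was left out for that reason.

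**Figure D3:**
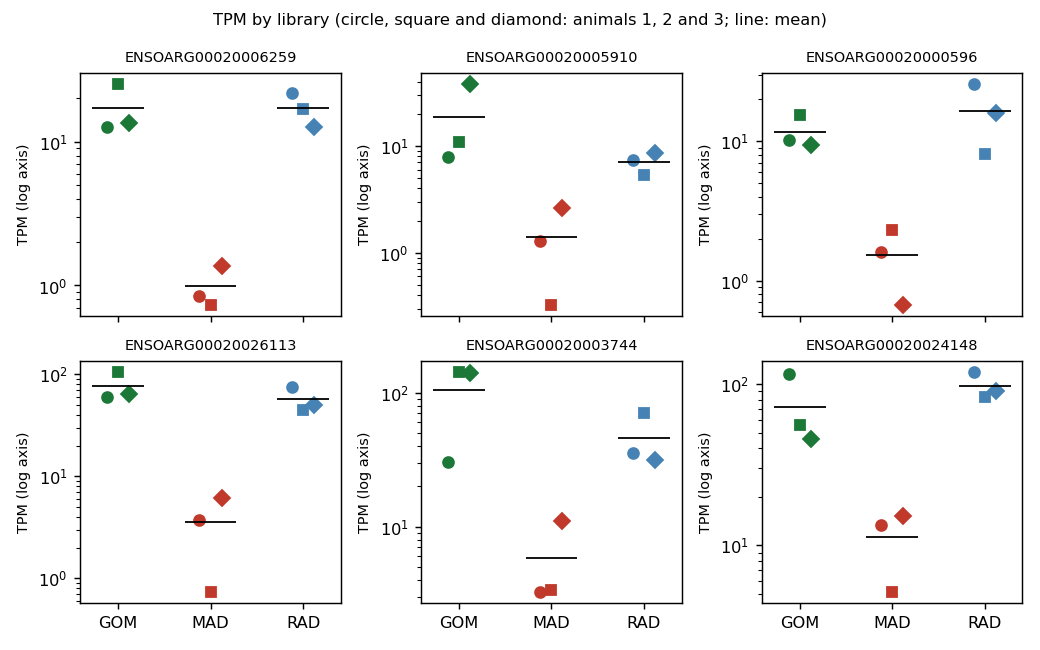
TPM on log axes in each library for 6 members, with circles, squares and diamonds for animals 1, 2 and 3 and lines for the mean of each depot; the left column shows the 2 members with the largest gap, the middle column those with the largest fitted excess of GOM over RAD, and the right column those with the largest fitted excess of RAD over GOM. In every panel the 3 MAD points lie below all 6 others, while the ranges of GOM and RAD overlap.

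The most abundant member showed how far MAD libraries could differ from each other. Its level was 1053, 2070 and 1239 TPM in GOM, 97.3, 14.6 and 318 TPM in MAD and 2166, 1673 and 914 TPM in RAD. The MAD library of animal 2 lay far below that of animal 3, although all MAD values stood below all others. With this spread neither difference passed the threshold (edgeR adjusted p = 0.0768 for GOM against MAD and 0.120 for MAD against RAD). The second most abundant member varied less, with 1190, 2302 and 1103 TPM in GOM, 359, 217 and 387 TPM in MAD and 1513, 1354 and 1222 TPM in RAD. The third had 1092, 2768 and 1816 TPM in GOM, 166, 82.1 and 268 TPM in MAD and 1171, 1041 and 743 TPM in RAD. The fourth had 1041, 1493 and 1777 TPM in GOM, 247, 186 and 309 TPM in MAD and 1550, 1200 and 1548 TPM in RAD. All 5 of the most abundant members were lowest in the MAD library of animal 2 and highest in MAD in that of animal 3, the fifth with 128, 41.8 and 222 TPM in MAD against 878 TPM or more elsewhere.

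The contrasts that the rule used were fitted with edgeR's quasi-likelihood test over all genes and are given as a description. Of the 242 members, 240 passed the filter on low counts, and the 2 that did not had means of 1.16 and 11.7 TPM over GOM and RAD. From GOM to MAD, 237 of the 240 were lower in MAD at a Benjamini-Hochberg adjusted p below 0.05, where 5.02% of all 14565 genes tested were called lower. The members made up 32.4% of the genes called lower. Their median log2 fold change was -2.85, with a range from -5.39 to -1.47, and the median of all genes was 0.03. The 3 members not called had means of 1519, 25.2 and 1.23 TPM over GOM and RAD and adjusted p of 0.0768, 0.120 and 0.0780 by edgeR. When the GOM and MAD libraries of animal 2 were both left out, the count of members called fell to 89, while the share of all genes called lower fell to 0.712% and the members' median log2 fold change was -2.30.

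From MAD to RAD, 193 of the 240 members were called higher in RAD, where 2.31% of all genes tested were called higher, and the members were 57.4% of those genes. Their median log2 fold change was 2.44, from 1.30 to 5.28, and the median of all genes was -0.03. All 240 had an unadjusted p below 0.05 by edgeR in both contrasts, as did 20.7% of all genes for a lower level in MAD than GOM and 13.6% for a higher level in RAD than MAD. The count for RAD fell when a single MAD or RAD library was left out. It was 90 without the MAD library of animal 1, 112 without that of animal 2 and 98 without the RAD library of animal 1. These fits have fewer libraries, and the share of all genes called higher in them was 0.908%, 0.885% and 0.742%. The members' median log2 fold change in them was 2.49, 2.30 and 2.32. Both contrasts share the MAD libraries, and the members were chosen on them, so nothing is read from the counts about the members as a group.

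GOM against RAD was not the contrast of the rule, which treats these depots alike but uses their values. By edgeR, 0 of the 240 members differed between GOM and RAD at an adjusted p below 0.05, and 0 at an unadjusted p below 0.05, where 0.0343% of all genes, 5 of 14565, were called and 521 had an unadjusted p below 0.05. DESeq2 called 0 members, with 3 at an unadjusted p below 0.05, where it called 0.652% of all genes and 4.32% had an unadjusted p below 0.05. On log2(TPM + 1) and log2(TPM + 0.1), limma called 0 members and 8 and 6 of all genes. The lowest adjusted p of a member was 0.99979 by edgeR. The rule used the lowest of the 6 GOM and RAD values, which works against genes with 1 of these depots far below the other, so these counts are not independent of the choice of members. A difference between GOM and RAD was not detectable in any member with 3 libraries a depot.

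The direction of the fitted difference was uneven all the same. The median log2 fold change from GOM to RAD was -0.29 in members and -0.02 in all genes tested, and 212 of the 240 members had a value below 0, that is, a lower level in RAD. In percent this was 88.3 of members and 53.0 of all genes. It was not seen without the GOM library of animal 2, where the median was -0.01 and 122 members had a value below 0. Without the GOM library of animal 1 the median was -0.50 and 39 members, 16.2%, had an unadjusted p below 0.05 by edgeR, where 4.73% of all genes did, with 0 members past the adjusted threshold. The mean TPM, which includes the GOM library of animal 2, was higher in GOM than in RAD in 205 of the 242 members. The share of all genes was not counted for this. Within single animals, GOM lay above RAD in 39 members in animal 1, 232 in animal 2 and 177 in animal 3. Among all genes of at least 1 TPM, the shares were 70.7%, 36.0% and 38.5%.

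Separation of GOM from RAD by library was rare. In 7 of the 242 members, 2.89%, the 3 GOM libraries and the 3 RAD libraries did not overlap, against 5.06% of all 13510 genes of at least 1 TPM, 684 genes. In all 7 of them GOM lay above RAD, and in 0 members did RAD lie above GOM. The rule favours members whose depots overlap here, so nothing is read from this share.

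The members at the ends of this contrast differed between animals. ENSOARG00020005910, with the largest fitted excess in GOM, had 7.80, 11.0 and 37.8 TPM in GOM, 1.28, 0.327 and 2.62 TPM in MAD and 7.42, 5.31 and 8.58 TPM in RAD. The difference came from the GOM library of animal 3, and the other 2 GOM libraries lay within or near the RAD range. Its log2 fold change from GOM to RAD was -1.43 with an SE of 0.72 (edgeR adjusted p = 0.99979) and -0.43 without that library. ENSOARG00020003744 had 30.3, 143.8 and 139.6 TPM in GOM, 3.26, 3.39 and 11.0 TPM in MAD and 35.3, 71.0 and 31.7 TPM in RAD, with a log2 fold change of -1.28 and an SE of 0.70. Here GOM of animal 1 lay below all RAD libraries and GOM of animals 2 and 3 above them.

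In the other direction, ENSOARG00020000596 had 10.2, 15.5 and 9.46 TPM in GOM, 1.61, 2.31 and 0.674 TPM in MAD and 25.6, 8.16 and 15.8 TPM in RAD. Its log2 fold change from GOM to RAD was 0.48 with an SE of 0.48, and the RAD library of animal 2 was the lowest of the 6. ENSOARG00020024148 had 115, 56.0 and 45.7 TPM in GOM, 13.4, 5.14 and 15.3 TPM in MAD and 119, 83.2 and 90.0 TPM in RAD, with a log2 fold change of 0.47 and an SE of 0.44. The GOM library of animal 1 lay among its RAD libraries and the other 2 below them. None of these differences passed the test.

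The order of the 3 animals within a depot was counted over the members. In GOM the library of animal 2 was the highest in 190 of 242 members, against 18.8% of all genes of at least 1 TPM, and that of animal 1 was the lowest in 167, against 21.0% of all genes. The order animal 2, then 3, then 1 was found in 137 members, 56.6%, and in 9.26% of all genes. In MAD the library of animal 2 was the lowest in 159 members, against 21.3% of all genes, and the highest place was shared between animal 1 with 115 and animal 3 with 105. In RAD the library of animal 1 was the highest in 115 members, against 15.3% of all genes, and that of animal 3 the lowest in 131, against 21.5%. An order of all 3 animals held most members in GOM but not in the other depots, where the commonest order held 36.4% in MAD (animal 3, then 1, then 2) and 28.5% in RAD (animal 2, then 1, then 3). These shares were not tested.

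The deviations from the depot mean on the log2(TPM + 0.1) scale gave the size of these shifts. In GOM the median member deviated by -0.36, 0.46 and -0.04 in animals 1, 2 and 3, where the median of all genes deviated by 0.15, -0.12 and -0.02. In MAD the medians were 0.21, -0.28 and 0.11 in members and 0.18, 0.05 and -0.23 in all genes. In RAD they were 0.18, 0.01 and -0.16 in members and -0.11, 0.05 and 0.06 in all genes. Members and genes in general thus deviated in opposite directions in GOM of animals 1 and 2, in MAD of animals 2 and 3 and in RAD of animals 1 and 3. The median SD of a member over the libraries of a depot was 0.49 for GOM, 0.42 for MAD and 0.31 for RAD, against 0.32, 0.36 and 0.26 for all genes. The rule sets a lower bound on the GOM and RAD levels of a member and an upper bound on its MAD levels, so these values describe the genes it let through.

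**Figure D4:**
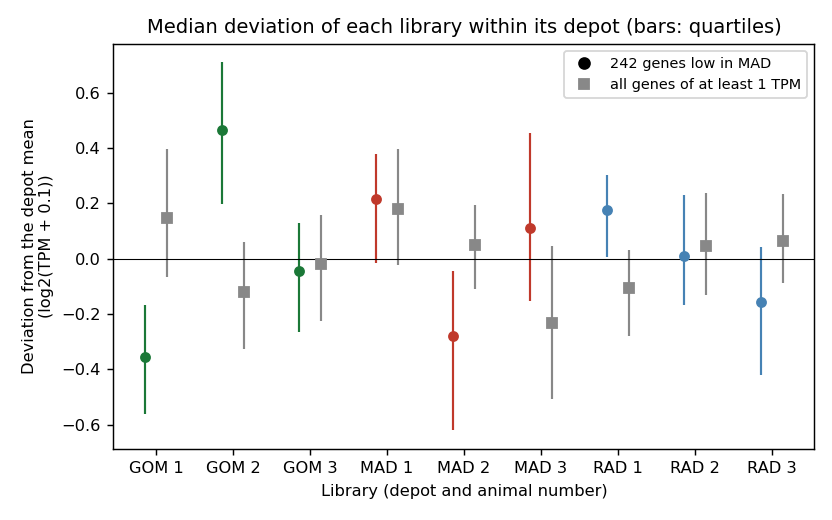
Median deviation of log2(TPM + 0.1) from the mean of the depot for each library (y axis), with bars from the 25th to the 75th percentile over genes; coloured circles are the 242 members and grey squares all genes of at least 1 TPM over GOM and RAD. The members are highest in GOM of animal 2, at 0.46, and lowest in GOM of animal 1, at -0.36, while the grey squares of these libraries lie on the other side of 0.

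The highest of all 9 libraries was GOM of animal 2 in 171 members, GOM of animal 3 in 32, RAD of animal 1 in 22, RAD of animal 3 in 10, GOM of animal 1 in 4 and RAD of animal 2 in 3. Among all genes of at least 1 TPM, GOM of animal 2 was the highest of the 9 libraries in 9.58%. By the rule no member can be highest in MAD, and among the 6 GOM and RAD libraries alone the share of all genes was 11.1%. The lowest of the 6 GOM and RAD libraries, which sets the gap, was RAD of animal 3 in 92 members, GOM of animal 1 in 62, RAD of animal 2 in 51, GOM of animal 3 in 24, RAD of animal 1 in 11 and GOM of animal 2 in 2. The gap was thus set in RAD for 154 members and in GOM for 88. On the side of MAD it was set by animal 1 or animal 3 in nearly all members.

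Because the 3 depots came from the same animals, each difference can be read within an animal. The rule fixes that every member was lower in MAD than in both other depots in each animal. In animal 1 the median log2 difference over members was 1.98 for GOM minus MAD and 2.35 for RAD minus MAD, that is, 3.93-fold and 5.11-fold. In animal 2 it was 3.39 and 2.69, or 10.5-fold and 6.43-fold, and in animal 3 it was 2.41 and 2.03, or 5.30-fold and 4.08-fold. The medians of all genes lay between -0.34 and 0.22 in these 6 differences. The distance from MAD was thus greatest in animal 2, and it was greater for RAD in animal 1 and for GOM in animals 2 and 3.

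GOM and RAD changed places between animals. The median log2 difference of GOM minus RAD over members was -0.31 in animal 1, 0.64 in animal 2 and 0.31 in animal 3, where all genes had medians of 0.21, -0.17 and -0.11. GOM lay above RAD in 39 members in animal 1, in 232 in animal 2 and in 177 in animal 3. The pattern of RAD above GOM in animal 1 with GOM above RAD in animals 2 and 3 was found in 146 members, 60.3%, and in 8.52% of all genes. GOM lay above RAD in all 3 animals in 28 members, 11.6%, against 9.36% of all genes, and RAD above GOM in all 3 in 7, 2.89% against 8.36%. The most common pattern among members thus had GOM and RAD in different orders in different animals. With 1 library per depot and animal, an effect of the animal and one of the single library cannot be told apart.

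**Figure D5:**
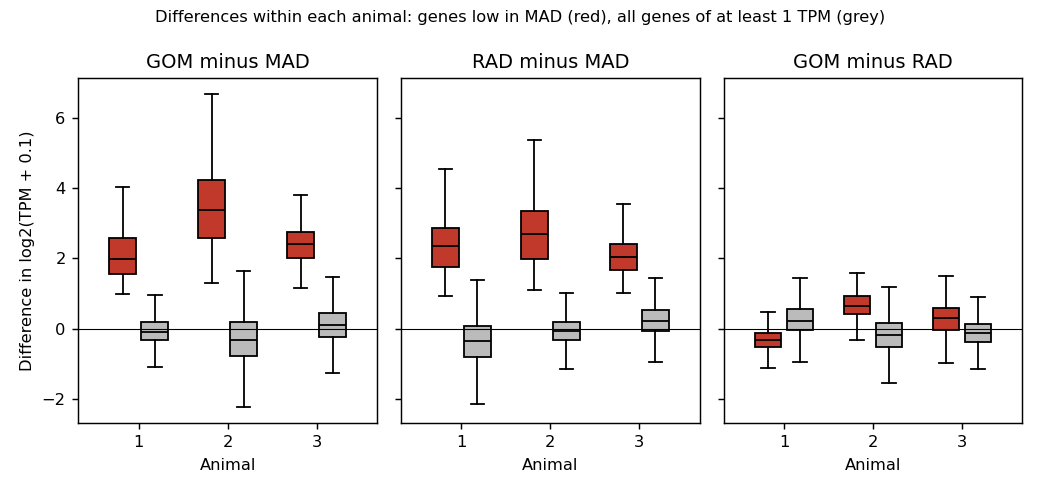
Differences in log2(TPM + 0.1) between depots within each animal (x axis), with red boxes for the 242 members and grey boxes for all genes of at least 1 TPM over GOM and RAD; boxes span the 25th to 75th percentile, lines mark medians and whiskers reach to the last gene within 1.5 box lengths. The red boxes of both differences from MAD lie above 0 in all 3 animals as the rule requires, whereas those of GOM minus RAD have medians of -0.31, 0.64 and 0.31.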

How the data were processed

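RNA of 9 adipose samples (3 depots of 3 sheep) was sequenced by the authors after rRNA depletion, and the reads were quantified with kallisto (release 0.43.0 per the submitters' processing notes, a later one per the study's methods) against the Ensembl annotation of Oar_rambouillet_v1.0. The authors deposited estimated counts and TPM per gene and library. Members were found on the TPM values as deposited. The members and lists were chosen with earlier results of these data known. The deposited estimated counts, after rounding to whole numbers, were fitted in 1 model of the depot with edgeR 4.0.16 in R 4.3.3 (TMM factors, filterByExpr, quasi-likelihood test, Benjamini-Hochberg adjustment over all genes tested, 6 residual degrees of freedom). Replicates are animals. The SE of a log2 fold change was its absolute value divided by the square root of the F statistic of the quasi-likelihood test. Log2 TPM in descriptions used a pseudocount of 0.1. Scripts were tested on simulated data. Alternatives used DESeq2 1.42.0, limma 3.58.1, other factors and filters, and each library left out in turn. Tables were handled with pandas 2.3.3 in Python 3.11.15.

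Libraries with the same number came from the same sheep per the labels. Over the genes tested, deviations of same-numbered libraries from their depot means correlated at a mean r of 0.372 over 9 pairs, from -0.0043 to 0.590. The 18 pairs of different animals had a mean of -0.188. Deviations within a depot add up to 0, so the second mean follows largely from the first and is no separate evidence of pairing. Over the members, the 9 same-animal pairs had a mean r of 0.232, from -0.0469 to 0.662. The animal was a replicate block in an alternative fit. Total counts ran from 14305713 to 22249680 per library, and the floor of 3 counts covers counting error only. Members were named by identifier under a rule, namely the 2 with the largest gap among those with at least 100 counts in all 6 GOM and RAD libraries and a MAD value above 0, and the 2 with the largest fitted fold change between GOM and RAD in each direction. Members described by abundance were the 5 with the highest mean over GOM and RAD. The 11 Hi-C libraries, with their domain and compartment tables, were not used here, because no source used here pairs the identifiers with positions. The gene lists and cell type markers could not be applied for lack of symbols.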

Additional observations from a re-analysis of the deposited data

How the results depend on the processing

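Of 64 values under other settings, 57 lay within 1.5 times the value reported. Of these 57, 16 were counts of 0 for GOM against RAD set against a reported 0, and the counts of members called in the other contrasts are of genes chosen on those contrasts. The number of genes found by the rule was 91 with the threshold at 1/3 of the lowest GOM or RAD TPM and 1106 with no fold required, and it ran from 241 to 368 over the libraries left out in turn, the highest without the MAD library of animal 1. The count of members called lower in MAD than GOM ran from 177 to 235 over the libraries left out (1.96% to 5.82% of all genes) and was 89 (0.712% of all genes) without the GOM and MAD libraries of animal 2, an alternative chosen after seeing the data. The count called higher in RAD than MAD ran from 90 to 221 over the libraries left out (0.742% to 2.94% of all genes), with 90 and 112 without the MAD libraries of animals 1 and 2 and 98 without the RAD library of animal 1. These fits have fewer libraries. The count for GOM against RAD was 0 in all 16 alternatives, where at most 0.652% of all genes were called. With so few calls among all genes, a count of 0 says little about the members. With the animal as a replicate block, 237, 218 and 0 members were called in the 3 comparisons, where 6.61%, 3.36% and 0.0549% of all genes were called. DESeq2 gave 240, 239 and 0, with 7.90%, 4.75% and 0.652% of all genes. The median log2 fold change of all genes from GOM to MAD was 0.12 with limma on log2(TPM + 0.1) and 0.10 on log2(TPM + 1), against 0.03 with edgeR on counts. The alternatives on the compartment index were not run, since no source used here gives positions for the identifiers. Depth limits the 16 members with fewer than 10 counts in all MAD libraries.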
